A study of Mus musculus with 96 samples.

Results

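Rapgef4os1, B930025P03Rik and Gm45301 are 3 long noncoding genes of the mouse that were selected on their higher counts in liver after sleep deprivation, and Rapgef4 was added as the protein-coding gene in which Rapgef4os1 lies. These 4 genes were found by symbol in the GENCODE M21 annotation (GRCm38) among the 54833 features of the count table. RNA was measured in male wild-type C57BL/6 mice of 6 to 8 weeks. They were housed in a light-dark cycle, and the study describes the collection of samples as under constant darkness. Sleep-deprived mice (SD) were kept walking for 10 h, while they would normally rest, by a drum that turned slowly, and control mice (CON) were left undisturbed. Liver, kidney, forebrain and cerebellum were then taken at 6 circadian times, CT4, CT8, CT12, CT16, CT20 and CT24, with 2 libraries for each tissue, condition and time, 96 libraries in all. Total RNA was depleted of ribosomal RNA and sequenced with strand kept, and the tables hold 24.8 to 58.5 M counts per library. The study describes the libraries of a group as biological repeats, and the labels do not name the animals, so p-values measure the spread between these libraries.

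Rapgef4 encodes EPAC2, a guanine nucleotide exchange factor that is switched on by cyclic AMP and loads the small GTPases RAP1 and RAP2 with GTP, independently of protein kinase A. Cyclic AMP is the messenger of glucagon and adrenaline in liver. Long noncoding RNAs are transcripts without a recognised open reading frame. An antisense gene is transcribed from the strand opposite to a known gene, and a lincRNA lies between genes. No function that is sure enough to state is attached to the 3 noncoding genes.

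Rapgef4os1 (ENSMUSG00000085439) is annotated as an antisense gene at chr2:72097603-72148796 on the minus strand, with 4 exons and 638 bases of exon. All 4 of its exons fall inside Rapgef4 (ENSMUSG00000049044), which spans chr2:71981240-72257474 on the plus strand, and 0 bases of them overlap a Rapgef4 exon. B930025P03Rik (ENSMUSG00000109473) is a lincRNA at chr8:10870422-10882454 on the minus strand with 2 transcripts and 3088 bases of exon. Gm45301 (ENSMUSG00000110384) is a lincRNA at chr8:35407471-35409506 on the minus strand with 2 exons and 933 bases of exon. For each noncoding gene 1 exon is given whose sequence was compared with the annotated transcripts of other genes. Introns were not searched. Reads of unspliced Rapgef4 RNA across the Rapgef4os1 exons would differ from Rapgef4os1 reads by strand alone. Exons were read in words of 31 bases, and 0 words of these 3 exons occur, on either strand, in a GENCODE M21 transcript of another gene (coordinates GRCm38, sequence on the minus strand, 5′ to 3′, all in lower case because no base is marked).

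Rapgef4os1 exon 1, chr2:72148664-72148796: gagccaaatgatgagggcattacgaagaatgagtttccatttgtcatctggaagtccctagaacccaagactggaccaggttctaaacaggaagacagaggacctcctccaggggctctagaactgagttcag
B930025P03Rik exon 2, chr8:10879782-10879985: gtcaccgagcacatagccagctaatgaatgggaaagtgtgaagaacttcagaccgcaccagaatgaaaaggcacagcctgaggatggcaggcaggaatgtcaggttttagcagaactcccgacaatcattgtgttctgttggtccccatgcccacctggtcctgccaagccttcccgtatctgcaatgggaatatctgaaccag
Gm45301 exon 2, chr8:35407471-35407769: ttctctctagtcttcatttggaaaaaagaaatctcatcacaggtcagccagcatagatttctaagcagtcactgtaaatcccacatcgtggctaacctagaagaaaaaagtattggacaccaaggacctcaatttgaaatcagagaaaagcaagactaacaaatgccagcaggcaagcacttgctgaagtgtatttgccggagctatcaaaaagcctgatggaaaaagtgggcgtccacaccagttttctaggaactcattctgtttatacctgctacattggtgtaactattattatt

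In Gm45301, 39 of the 604 words of exon 1 were shared with other genes and 0 of the 269 words of exon 2. No word of B930025P03Rik was shared. Part of the exon sequence of Rapgef4os1 also occurs in transcripts of other genes. The table gives 1 count per gene, so the exon that a Rapgef4os1 count came from is not known from it, and its level is uncertain to that extent.

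The region around the start of B930025P03Rik is shown because the gene differed with the least relative error of the 3 in liver (250 bases before to 50 after its RefSeq start, GRCm38.p6, chr8:10882405-10882704, minus strand).

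B930025P03Rik promoter: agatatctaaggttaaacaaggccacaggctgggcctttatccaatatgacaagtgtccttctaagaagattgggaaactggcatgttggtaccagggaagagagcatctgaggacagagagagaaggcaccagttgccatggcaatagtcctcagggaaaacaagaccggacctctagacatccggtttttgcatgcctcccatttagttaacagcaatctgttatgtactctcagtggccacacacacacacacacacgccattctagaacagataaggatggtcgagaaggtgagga

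A promoter was matched for 2 of the 4 genes, B930025P03Rik and Rapgef4. Both were searched on both strands for the E-box CACGTG, the D-box TTATGTAA, the ROR element TAGGTCA, the cAMP response element TGACGTCA and the TATA box TATAAA, and 0 matches were found. Of the 32851 promoters of this length, 7.15% held CACGTG, 0.938% TTATGTAA, 2.61% TAGGTCA, 1.79% TGACGTCA and 13.6% TATAAA.

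The labelled tissues carried their marker genes. The summed level of 6 hepatocyte genes, Alb among them, was 68800 to 96358 CPM (the count of a gene scaled to its library total, a level not corrected for length) in liver, and 4 kidney tubule genes summed to 7899 to 10004 CPM in kidney and to at most 0.965 CPM in liver. The hepatocyte genes reached 1710 CPM in CON and 2777 CPM in SD cerebellum and 100.4 and 300.1 CPM in CON and SD forebrain, with lowest values of 4.54 to 6.27 CPM. The 6 genes are Alb, Apoa1, Ttr, Tat, Hpd and Cps1. Their sum does not show which of them was counted in brain, so it does not by itself show liver RNA there. Whether liver RNA had a part in the low brain counts of B930025P03Rik and Gm45301 was not tested. In the kidney, the sample titles and the other label fields disagree on condition or time for 20 of 24 libraries, and every kidney value here follows the titles, which match the column names. Replicate 1 of cerebellum CON at CT8 stood apart: genes annotated as antisense took 3.60% of its counts, against 0.831% to 0.979% in the other cerebellum libraries, and results that rest on it are given with and without it. In liver this share was 0.749% to 1.04% in CON and 0.738% to 1.05% in SD.

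In control liver, the mean of Rapgef4os1 was lowest at CT24 and highest at CT16. Its level in the CON libraries was 0.663 and 0.804 CPM at CT4, 0.428 and 2.0 at CT8, 5.72 and 2.66 at CT12, 4.47 and 16.2 at CT16, 1.73 and 3.0 at CT20, and 0.635 and 0.229 at CT24. In SD livers it was 2.32 and 0.878 CPM at CT4, 1.77 and 3.53 at CT8, 6.81 and 3.76 at CT12, 11.4 and 7.76 at CT16, 7.46 and 9.57 at CT20, and 1.42 and 3.0 at CT24. Both SD libraries lay above both CON libraries at CT4, CT20 and CT24, and the conditions overlapped at the other 3 times. The mean was higher in SD at 5 of 6 times and lower at CT16 (9.56 against 10.4 CPM), where the 2 CON libraries were furthest apart. At CT20 the SD mean was 3.61-fold the CON mean and at CT24 5.11-fold. Over all times the fitted log2 fold change, SD over CON, was 1.15 ± 0.30 (SE), and it stayed between 1.02 and 1.41 when each of the 24 libraries was left out. This gene was chosen by this contrast, so these values are a description without a test. Here and below, the separation of libraries at single times was not tested for any gene, and the share of all genes showing it was not counted.

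B930025P03Rik also had its highest control mean at CT16 and its lowest at CT24. Its level in CON livers was 2.23 and 1.56 CPM at CT4, 2.17 and 2.87 at CT8, 5.39 and 3.71 at CT12, 12.4 and 8.0 at CT16, 3.25 and 1.97 at CT20, and 0.921 and 0.915 at CT24. In SD livers it was 5.35 and 1.96 CPM at CT4, 3.45 and 2.80 at CT8, 6.96 and 5.14 at CT12, 24.2 and 18.4 at CT16, 10.8 and 7.47 at CT20, and 2.54 and 2.66 at CT24. The SD mean was the higher one at 6 of 6 times, and from CT16 to CT24 both SD libraries exceeded both CON libraries. The SD over CON ratio of the means was 1.93 at CT4, 1.24 at CT8, 1.33 at CT12, 2.09 at CT16, 3.50 at CT20 and 2.83 at CT24. The fitted log2 fold change over all times was 1.14 ± 0.17 (SE), again a description, and ranged from 1.05 to 1.21 with a library left out.

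Gm45301 ran the other way through the day, with its lowest control mean at CT16 (1.40 CPM) and its highest at CT4 (8.53 CPM). CON livers held 11.3 and 5.78 CPM at CT4, 3.61 and 2.63 at CT8, 2.62 and 1.63 at CT12, 0.339 and 2.47 at CT16, 1.73 and 2.30 at CT20, and 7.66 and 1.25 at CT24. SD livers held 13.7 and 9.10 CPM at CT4, 8.28 and 8.40 at CT8, 2.39 and 4.26 at CT12, 2.40 and 2.0 at CT16, 1.18 and 12.6 at CT20, and 19.4 and 23.5 at CT24. The libraries of the conditions were apart at CT8 and CT24 and overlapped at the other 4 times, although the SD mean was higher at all 6. The SD mean was 2.67-fold the CON mean at CT8 and 4.82-fold at CT24. The 2 SD libraries at CT20 differed by more than those of any other group of this gene, and the fitted log2 fold change of 1.35 ± 0.33 (SE) became 1.08 without replicate 2 of that group.

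Rapgef4 itself was counted at far higher levels, and its SD and CON values overlapped at most times. CON livers held 233 and 243 CPM at CT4, 214 and 129.9 at CT8, 237 and 230.2 at CT12, 420.1 and 657 at CT16, 263 and 341 at CT20, and 234 and 227 at CT24. SD livers held 240.5 and 163 CPM at CT4, 217 and 139.5 at CT8, 179 and 259 at CT12, 492 and 319.5 at CT16, 369.9 and 335 at CT20, and 251 and 305 at CT24. CT16 was the highest time in both conditions, the SD mean was higher at 3 times and lower at 3, and only at CT24 were the libraries of the conditions apart. Because Rapgef4 was chosen by its position and not by its counts, its contrast could be tested. The log2 fold change was 0.10 ± 0.11 (SE) and did not pass the test (edgeR quasi-likelihood, adjusted p = 0.602). With scaling to library sizes alone it was -0.03 (adjusted p = 0.867).

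**Figure D1:**
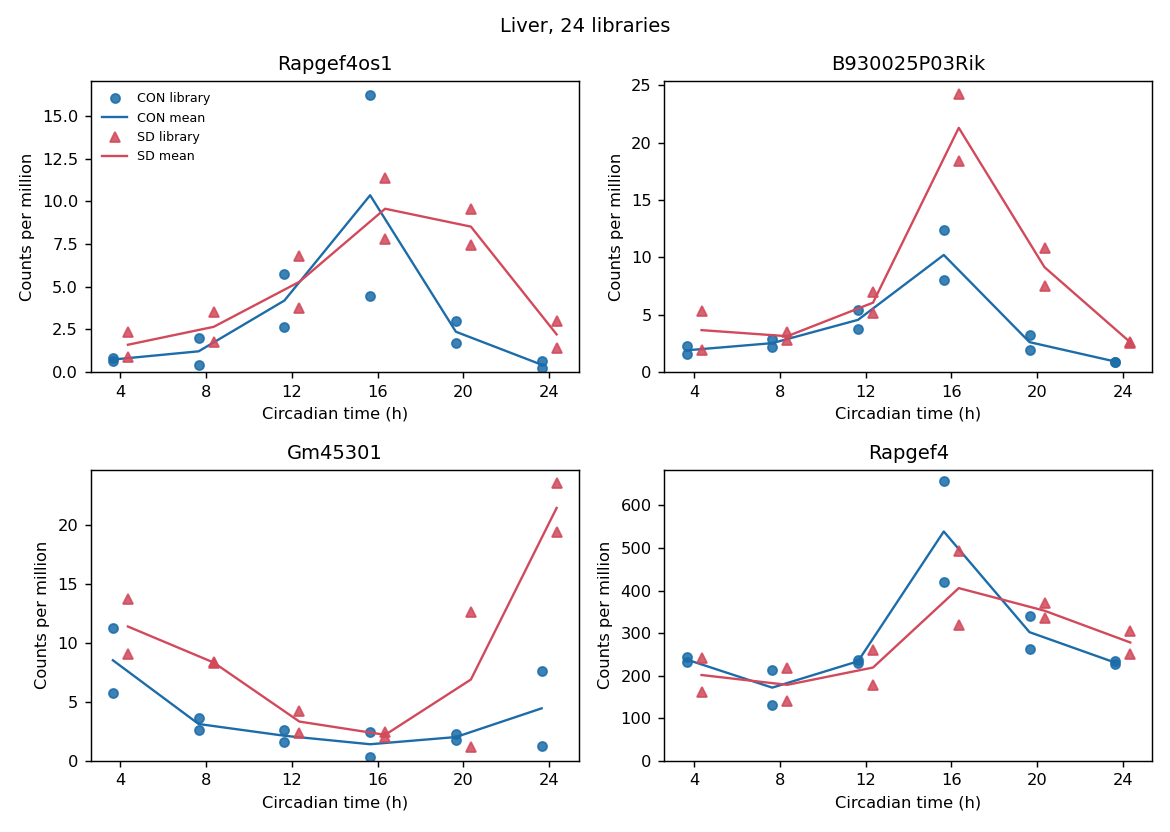
Liver level of each gene (CPM, linear axis from 0) against circadian time, with 1 point per library and lines through the means of the 2 CON (circles) and 2 SD (triangles) libraries of a time. Rapgef4os1, B930025P03Rik and Rapgef4 are highest at CT16 in both conditions, while Gm45301 is lowest there and reaches 19.4 and 23.5 CPM in SD at CT24.

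Some measures of the whole libraries moved with sleep deprivation in liver. Of 19708 genes tested, 18.2% had an adjusted p under 0.05, 9.42% higher and 8.8% lower in SD. Against this background 3 of the 4 genes were higher, which is what they were selected for. Scaling to library sizes alone moved the median log2 fold change of all genes from 0.01 to -0.13 and the share of calls that were higher from 51.7% to 8.69%, while the 3 noncoding genes remained higher, at 1.02, 1.0 and 1.22. The summed level of 4 Kupffer cell markers was 488 to 965 CPM in CON and 362 to 602 CPM in SD, and that of 4 lymphocyte markers 67.7 to 130.2 CPM in CON and 31.5 to 65.0 CPM in SD. Hepatocyte markers summed to 68800 to 96358 CPM in CON and 71153 to 95527 CPM in SD, and endothelial markers to 302 to 389 and 259 to 397 CPM. Whether these shifts had a part in the values of the 4 genes was not tested. In bulk tissue, fewer cells of a type and less RNA per cell cannot be told apart. Of 8 well-known long noncoding RNAs, 0 were higher and 2 were lower in SD livers by edgeR and by DESeq2, with a median log2 fold change of -0.28. Snhg11, a small nucleolar RNA host gene, fell by 0.84 ± 0.19 (adjusted p = 0.00385) and Pvt1, the neighbour of Myc, fell by 0.56 ± 0.13 (adjusted p = 0.00402).

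The next question was whether the difference between conditions depended on the circadian time of collection. Per the study, deprivation was given at fixed clock hours before the collections. Circadian time and time since deprivation therefore cannot be told apart in SD mice, here and in the comparisons of rhythm between conditions. In the joint test of the 5 condition by time terms in liver, 0 of the 4 genes passed (adjusted p = 0.999 for each), and 0 of 19708 genes did by edgeR (0%), with 884 at an unadjusted p under 0.05 and 42 called by DESeq2. Without the filter on low counts the same test gave adjusted p = 1.58e-07 for Rapgef4os1, 0.00749 for B930025P03Rik and 1.11e-06 for Gm45301, and called 2.69% of 32589 genes, so here the call depends on the filter. In the SD against CON fit over all times, dropping the filter left the log2 fold changes of these genes almost unchanged. It cut their SE from 0.30 to 0.12 for Rapgef4os1, from 0.17 to 0.10 for B930025P03Rik and from 0.33 to 0.10 for Gm45301. The SE of the condition by time terms was not compared. The joint test does not single out times, and its call changes with the filter. The rises at CT20 and CT24 described above are thus not shown to differ from those at other times.

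Rhythm was tested within each condition with JTK_CYCLE, which ranks the 12 libraries against 24 h waves of 6 phases. In CON livers, B930025P03Rik had an exact p = 0.0311 with the best phase at CT12, Rapgef4os1 p = 0.0531 at CT16, Gm45301 p = 0.0865 at CT4 and Rapgef4 p = 0.136 at CT20, and 0 of the 4 passed after adjustment (adjusted p = 0.246 to 0.479), as 0.147% of all genes did. In SD livers the exact p-values were 0.00190 for Rapgef4os1 and 0.00900 for both B930025P03Rik and Rapgef4, with phases at CT16, CT16 and CT20, and 0.0865 for Gm45301 at CT24. Again 0 of 4 passed (adjusted p = 0.0626 to 0.330), against 1.76% of all genes. A cosine fitted to the counts instead called Rapgef4os1, B930025P03Rik and Gm45301 in both conditions and Rapgef4 in SD, where it called 8.87% of all genes in CON and 11% in SD. Its peaks were at 14.9 h in CON and 16.5 h in SD for Rapgef4os1, 14.2 and 16.4 h for B930025P03Rik, 3.50 and 2.13 h for Gm45301, and 18.1 and 19.2 h for Rapgef4. The amplitude, on the log2 scale, was 2.0 in CON and 1.27 in SD for Rapgef4os1, 1.28 and 1.23 for B930025P03Rik, 1.28 and 1.54 for Gm45301, and 0.52 and 0.54 for Rapgef4. The difference of the 24 h wave between conditions was tested directly, and 0 of the 4 genes and 0 of 19708 genes (0%) passed by edgeR (adjusted p = 1.0 for each of the 4, 722 genes at an unadjusted p under 0.05). Without the low-count filter Rapgef4os1 (adjusted p = 9.09e-05) and B930025P03Rik (adjusted p = 0.0187) passed, as did 1.26% of 32589 genes.

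In the other tissues the noncoding genes were not chosen by their counts, so the SD against CON contrast is a test there. In kidney, Rapgef4os1 was at its lowest level of the 4 tissues, 0.175 ± 0.076 CPM (SD, n = 12) in CON and 0.180 ± 0.077 in SD, and its log2 fold change was 0.01 ± 0.24 (adjusted p = 0.993). B930025P03Rik in kidney also had its highest control mean at CT16 and its lowest at CT24, at a lower level than in liver. CON kidneys held 0.217 and 0.477 CPM at CT4, 0.160 and 0.382 at CT8, 0.491 and 0.434 at CT12, 0.822 and 0.290 at CT16, 0.429 and 0.163 at CT20, and 0.121 and 0.0915 at CT24. SD kidneys held 0.0499 and 0 CPM at CT4, 0.266 and 0.236 at CT8, 0.498 and 0.841 at CT12, 1.28 and 1.33 at CT16, 0.537 and 0.343 at CT20, and 0.121 and 0.125 at CT24. SD libraries were above CON at CT12 and CT16 and below at CT4, and over all times the log2 fold change was 0.20 ± 0.33 (adjusted p = 0.853). Kidney libraries held 4 to 31 counts of B930025P03Rik in CON and 0 to 75 in SD, so some of these values rest on few counts. The exact JTK_CYCLE p of this gene was 5.77e-05 in SD kidneys, with the phase at CT16, and 0.205 in CON kidneys. The cosine called it in SD kidneys (edgeR adjusted p = 0.00101), with 2.21% of all genes. After adjustment over 21528 genes the JTK_CYCLE values were 0.0777 and 0.897, and the difference of the waves gave adjusted p = 0.999. In all, 0 of 3 tested genes passed the SD against CON test in kidney, where 2.3% of genes did.

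B930025P03Rik in forebrain had the lower mean in SD at 5 of 6 times. CON forebrains held 0.707 and 1.01 CPM at CT4, 1.24 and 0.741 at CT8, 0.495 and 0.666 at CT12, 0.542 and 0.823 at CT16, 0.829 and 0.931 at CT20, and 0.584 and 0.632 at CT24. SD forebrains held 0.276 and 0.879 CPM at CT4, 0.688 and 0.564 at CT8, 0.761 and 0.437 at CT12, 0.458 and 0.487 at CT16, 0.407 and 0.165 at CT20, and 0.380 and 0.465 at CT24. Both SD libraries lay below both CON libraries at CT8, CT16, CT20 and CT24, which was not tested, and the share of all genes so separated was not counted. The log2 fold change was -0.63 ± 0.20 and did not pass (edgeR adjusted p = 0.682, and 0.00534 before adjustment). Of 23078 genes tested, 0.0303% passed. Rapgef4os1 (0.20 ± 0.11, adjusted p = 0.786) and Rapgef4 (0.10 ± 0.09, adjusted p = 0.836) did not pass in forebrain either. In cerebellum Rapgef4os1 had a log2 fold change of -0.28 ± 0.26 (adjusted p = 0.907), which became 0.05 without the CT8 library that stood apart, and Rapgef4 had 0.03 ± 0.04 (adjusted p = 0.907). There 0 of 22218 genes passed by edgeR (0%), with 757 at an unadjusted p under 0.05 and 1 called by DESeq2. B930025P03Rik in cerebellum and Gm45301 in kidney, forebrain and cerebellum fell below the filter on low counts.

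The condition by time test called 0 of the tested genes of interest in kidney, forebrain and cerebellum, with adjusted p between 0.530 and 0.993. It called 0% of all genes in each by edgeR, with 1576, 2604 and 2078 at an unadjusted p under 0.05 and 129, 679 and 190 called by DESeq2. Without the filter B930025P03Rik in kidney (edgeR adjusted p = 0.00251, 4.84% of 36128 genes called) and Rapgef4os1 in cerebellum (edgeR adjusted p = 1.47e-08, 8.87% of 37212 genes called, with CT8 replicate 1 in the fit) passed. JTK_CYCLE called 0 of them in these tissues, where it called 0.158% of genes in CON kidneys and 0% in SD kidneys, both forebrain sets and both cerebellum sets (1586, 1277, 722, 638 and 860 genes at an unadjusted p under 0.05, with 475, 23, 1, 1 and 21 called by the cosine). The wave difference also called 0 of them, and 0% of all genes, in the 3 tissues (edgeR, 874, 1390 and 2248 genes at an unadjusted p under 0.05). The response of Rapgef4 in liver could be set against its response elsewhere. The difference of log2 fold changes, liver minus the other tissue, was 0.06 ± 0.14 for kidney (adjusted p = 0.849), 0.03 ± 0.15 for forebrain (adjusted p = 1.0) and 0.06 ± 0.13 for cerebellum (adjusted p = 0.893). Rapgef4 passed in 0 of these 3 tests, which called 6.49%, 6.9% and 2.47% of genes.

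The 4 genes differed in where they were present in control mice. A gene raised in liver had to be counted in liver, so its presence there is part of the choice, while the levels elsewhere are not. Gm45301 was close to a liver transcript alone, with 1625 counts over the 12 CON livers and 5, 1 and 5 counts over the 12 CON kidneys, forebrains and cerebella. It was at 0 in 8 kidney, 11 forebrain and 9 cerebellum CON libraries, and 3 counts in the 12 CON kidneys would be 0.00632 CPM. It was chosen on its liver counts and lies near this floor elsewhere, so its tissue differences are given without a test. B930025P03Rik came to 3.78 ± 3.38 CPM (SD, n = 12) in CON liver, 0.767 ± 0.216 in forebrain, 0.340 ± 0.210 in kidney and 0.129 ± 0.092 in cerebellum, and each step of this order passed the test. The fitted fold was 5.81 between liver and forebrain (adjusted p = 1.33e-11), 2.37 between forebrain and kidney (adjusted p = 0.000153) and 2.87 between kidney and cerebellum (adjusted p = 0.000199). The tests of this gene and of Rapgef4os1 that involve liver are not independent of the choice on liver counts. The cerebellum level of B930025P03Rik rests on 43 counts over the 12 CON libraries, and within cerebellum the gene fell below the low-count filter.

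Rapgef4 and Rapgef4os1 shared their tissue order in part. Rapgef4, best known from brain and endocrine cells, came to 457 ± 68 CPM in CON forebrain, 375 ± 23 in cerebellum, 286 ± 137 in liver and 14.1 ± 1.7 in kidney (SD, n = 12). Kidney was below each other tissue, with a fitted fold of 27.3 against liver (adjusted p = 1.21e-34). Forebrain exceeded cerebellum 1.35-fold (adjusted p = 0.000190). Liver against forebrain did not pass (log2 difference -0.18 ± 0.10, adjusted p = 0.0978). Liver against cerebellum changed sign with the scaling, at 0.26 ± 0.10 with TMM (adjusted p = 0.0176) and -0.46 with library sizes alone (adjusted p = 0.000127). Rapgef4os1 had a median of 7.73 CPM in CON cerebellum, 5.18 in forebrain, 1.87 in liver and 0.167 in kidney. The cerebellum libraries spanned 6.95 to 49.9 CPM, the top value being that of CT8 replicate 1, where Rapgef4os3 and Rapgef4os2, the other antisense genes of the locus, also had the highest control values, 6.30 and 1.45 CPM. Kidney was below each other tissue for Rapgef4os1 too, with a fitted fold of 20.2 against liver (adjusted p = 1.53e-11). Forebrain against liver did not pass (adjusted p = 0.184), and forebrain against cerebellum passed with all libraries (1.83-fold, adjusted p = 0.0247) but not without that library (1.38-fold, adjusted p = 0.148). Liver against cerebellum was called in both cases (2.61-fold, adjusted p = 0.000775, and 1.97-fold, adjusted p = 0.00309, both with cerebellum higher).

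Counted over the 6 pairs of tissues, 3 of the 3 genes other than Gm45301 differed between liver and kidney, 1 between liver and forebrain, 3 between liver and cerebellum, 3 between kidney and forebrain, 3 between kidney and cerebellum and 3 between forebrain and cerebellum. Of 26536 genes tested, 68.6%, 85.9%, 87.8%, 85%, 87.1% and 70.3% differed in these pairs, so such differences were the rule.

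**Figure D2:**
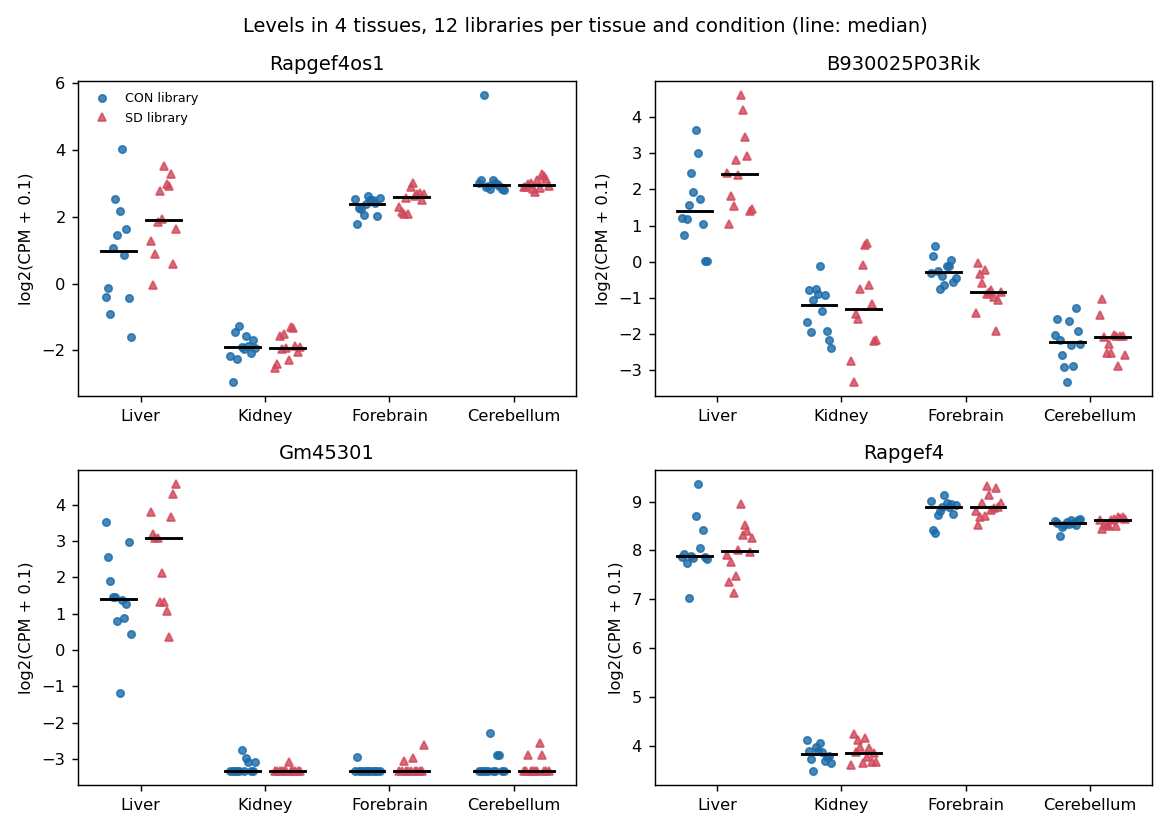
Level of each gene as log2(CPM + 0.1) in 4 tissues, with 1 point per library (CON circles, SD triangles, 12 each) and a black line at the median. Gm45301 is at the floor of the scale outside liver, kidney is lowest for Rapgef4os1 and Rapgef4, and 1 CON cerebellum library stands above the rest for Rapgef4os1.

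Rapgef4os1 and Rapgef4 are read from opposite strands of the same locus, so their levels were compared within libraries. The exons of Rapgef4os1 lie inside Rapgef4. Whether Rapgef4 reads assigned to the other strand had a part in the Rapgef4os1 counts, and so in the correlations below, was not tested. Per kilobase of exon, Rapgef4os1 stood at 11.8% of Rapgef4 in CON liver, 12.9% in CON kidney, 11.4% in CON forebrain and 31.2% in CON cerebellum, or 21.0% there without CT8 replicate 1. In SD it was 19.1%, 12.8%, 12.4% and 21.5%. As a share of Rapgef4 counts in single libraries, with no correction for length, Rapgef4os1 ran from 0.101% to 2.47% in CON liver and from 0.540% to 3.80% in SD liver. It kept to 0.903% to 1.43% in CON forebrain and to 1.74% to 2.29% in CON cerebellum without CT8 replicate 1, which had 15.9%.

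Across the 12 libraries of a set the levels of the 2 genes were correlated in forebrain in both conditions. Pearson's r of log2(CPM + 0.1) was 0.76 in CON forebrain (permutation p = 0.00533, adjusted p = 0.0213 over 8 sets, Spearman's coefficient = 0.85) and 0.86 in SD forebrain (permutation p = 0.000580, adjusted p = 0.00464, Spearman's coefficient = 0.90). Leaving out the 2 libraries farthest from the median of Rapgef4 gave r = 0.85 and 0.90. In liver r was 0.62 in CON (permutation p = 0.0310, adjusted p = 0.0533, Spearman's coefficient = 0.64 with adjusted permutation p = 0.0451) and 0.62 in SD (permutation p = 0.0333, adjusted p = 0.0533, Spearman's coefficient = 0.71 with adjusted permutation p = 0.0283). Without the 2 farthest libraries the liver values were 0.60 and 0.62, with adjusted permutation p = 0.122 for both, and Spearman's coefficient was 0.71 and 0.73, with adjusted permutation p = 0.0427 for both. The libraries of a set differ in time of day, and whether a common daily course had a part in these correlations was not tested. In forebrain the summed neuron markers ran from 2419 to 3561 CPM in CON and from 2733 to 3529 CPM in SD. Stellate cell markers summed to 152 to 580 CPM in CON and 142 to 365 CPM in SD. The lowest neuron sum and the lowest Rapgef4 level fell in the same CON library, and the highest of both in the same SD library. The other extremes fell in different libraries. Whether this spread between libraries had a part in the forebrain correlations was not tested. In kidney r was 0.04 in CON (permutation p = 0.893, Spearman's coefficient = -0.03) and -0.13 in SD (permutation p = 0.695, Spearman's coefficient = -0.07). Kidney libraries held only 1 to 11 counts of Rapgef4os1 in CON and 3 to 15 in SD, so a relation could go unseen there. In CON cerebellum r was -0.87 (permutation p = 0.0155, adjusted p = 0.0414, Spearman's coefficient = -0.41) and rested on CT8 replicate 1. Without that library it was -0.29 (adjusted permutation p = 0.510), and without the 2 farthest libraries -0.12 (adjusted permutation p = 0.845). In SD cerebellum r was 0.56 (permutation p = 0.0576, adjusted p = 0.0768, Spearman's coefficient = 0.70 with adjusted permutation p = 0.0283).

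**Figure D3:**
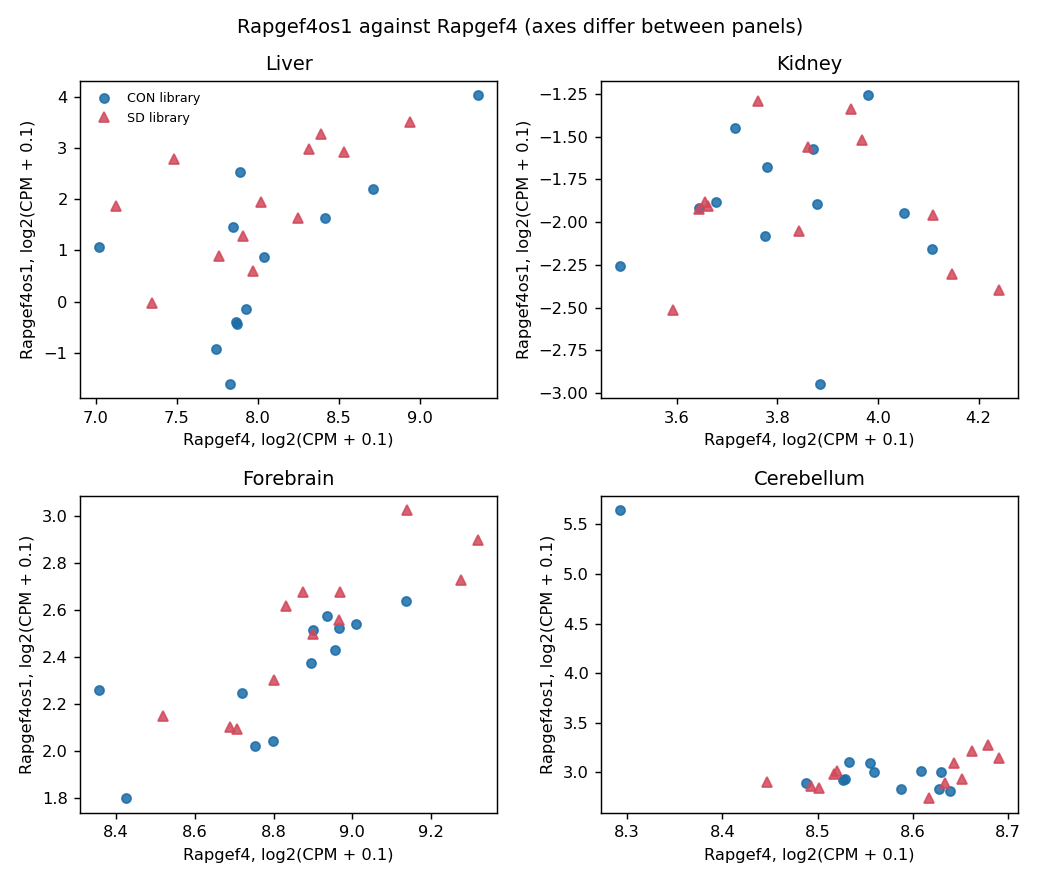
Rapgef4os1 against Rapgef4, both as log2(CPM + 0.1), in the 4 tissues, with 1 point per library (CON circles, SD triangles) and separate axes for each tissue. Points rise together in forebrain and liver and show no common direction in kidney, where Rapgef4os1 had few counts. In cerebellum 1 CON library lies far above the others.

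Genes near the 4 loci were then taken by position alone, within 200 kb. Of 18 such neighbours tested in liver, 3 rose and 1 fell, beside 9.42% and 8.8% of all genes. All 3 that rose lay around B930025P03Rik, where 7 neighbours were tested and all 7 had a positive log2 fold change. Gm32540, a lincRNA on the same strand 4.2 kb away, rose by 0.69 ± 0.16 (adjusted p = 0.00431), from 1.95 ± 1.16 to 2.68 ± 1.23 CPM (SD, n = 12). Gm2814, a lincRNA 15.7 kb to the other side, rose by 0.66 ± 0.14 (adjusted p = 0.00209), from 1.08 ± 0.46 to 1.51 ± 0.34 CPM. 4833411C07Rik, a processed transcript on the opposite strand 17.5 kb away, was the most abundant of them and rose by 0.53 ± 0.09 (adjusted p = 0.000259), from 24.4 ± 7.8 to 31.2 ± 8.7 CPM. Its position overlaps that of Gm2814, and Irs2 and 9530052E02Rik among the 7 also overlap, so the neighbours are not all separate loci.

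These calls held when each of the 24 libraries was left out (highest adjusted p = 0.00959, 0.00520 and 0.000829). By time, the SD libraries of 4833411C07Rik were above the CON libraries at CT4 (33.6 and 31.7 against 29.3 and 27.3 CPM), at CT20 (24.1 and 22.5 against 20.2 and 15.3) and at CT24 (24.6 and 21.9 against 11.8 and 11.6). Gm32540 and Gm2814 were above CON without overlap at 4 times each, CT24 among them. Separation at single times was not tested for these neighbours or for Irs2 below, and the share of all genes showing it was not counted. Gm45044 (0.73 ± 0.50) and 3930402G23Rik (1.0 ± 0.48), lincRNAs of the same strand with few counts, did not pass (adjusted p = 0.344 and 0.156). In kidney Gm32540 had 0.67 ± 0.23 (adjusted p = 0.164), and neither Gm2814 nor 4833411C07Rik passed there. Irs2, the insulin receptor substrate gene that is the nearest coding neighbour at 102.2 kb, had 0.43 ± 0.18 (adjusted p = 0.103). Its SD mean was higher at 3 of 6 times. At CT20 and CT24 the SD libraries (24.9 to 58.8 CPM) lay above the CON libraries (18.8 to 24.5 CPM), and at the other 4 times the conditions overlapped.

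Of the 6 tested neighbours of Gm45301, 5 also had a positive log2 fold change, as had 1 of the 4 of Rapgef4os1 and 1 of the 5 of Rapgef4, beside 51.1% of all genes, and the loci were not tested against each other. Around Rapgef4os1 and Rapgef4, the nearest coding genes tested were Pdk1, a pyruvate dehydrogenase kinase (0.10 ± 0.08, adjusted p = 0.477), and Map3k20, a stress-activated kinase (-0.02 ± 0.05, adjusted p = 0.883), and neither passed. Rapgef4os3 had -0.27 ± 0.38 (adjusted p = 0.691). Near Gm45301, Ppp1r3b, which targets protein phosphatase 1 to glycogen in liver, lies 19.3 kb away and had 0.15 ± 0.14 (adjusted p = 0.486). At 55.7 kb, Eri1, an exoribonuclease of histone mRNA and small RNAs, fell by 0.17 ± 0.06 (adjusted p = 0.0349), and this call was lost when any of 8 libraries was left out (adjusted p up to 0.0798).

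**Figure D4:**
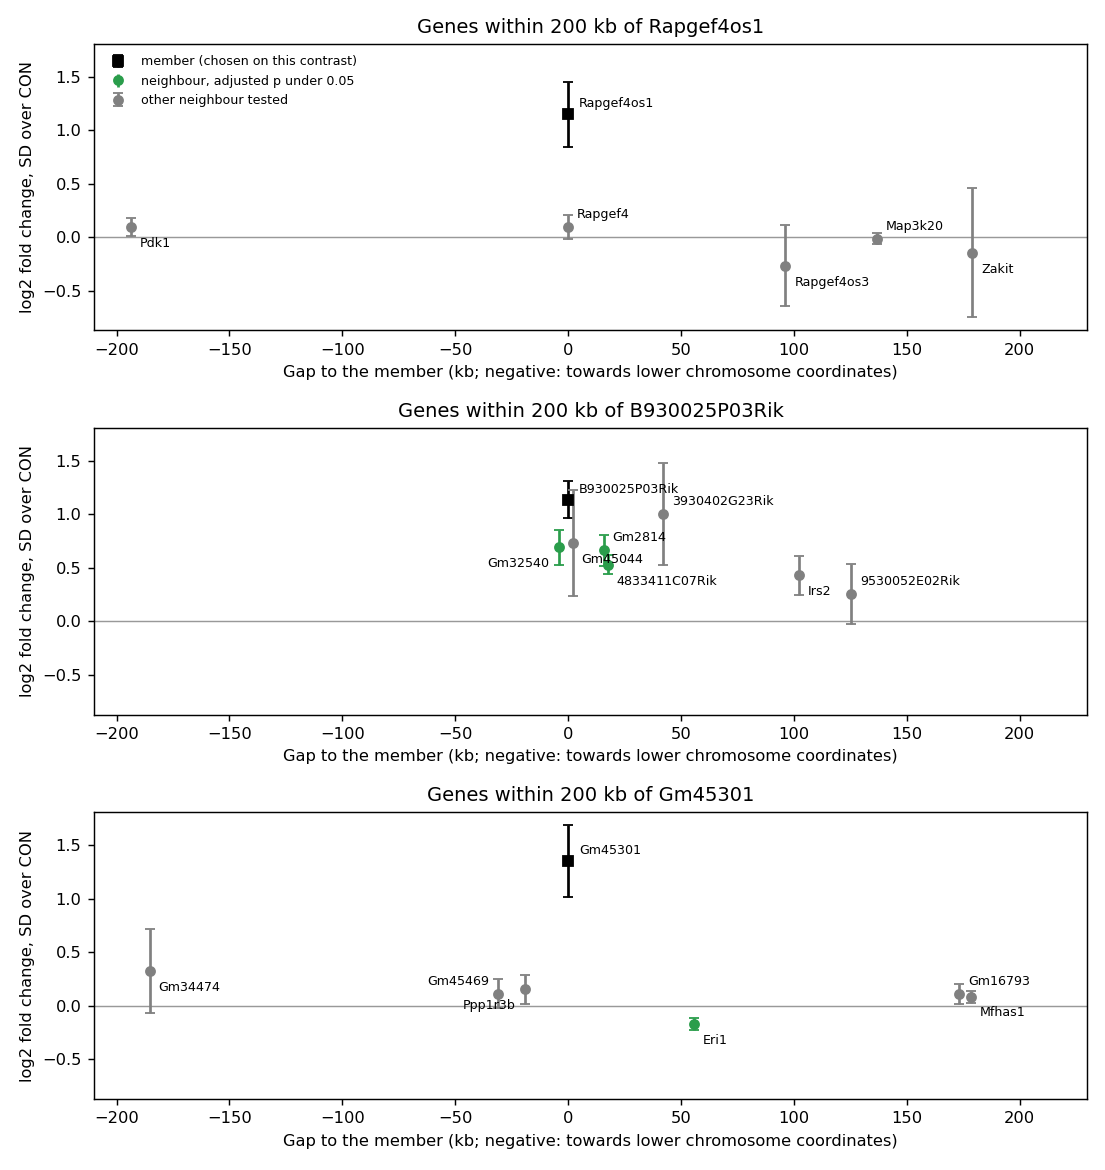
Liver log2 fold change, SD over CON, with SE bars, for genes within 200 kb of Rapgef4os1, B930025P03Rik and Gm45301, plotted against the gap to that gene in kb. All 7 tested neighbours of B930025P03Rik lie above 0, and the 3 of them past the test (green) are within 17.5 kb.

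Since Rapgef4 acts between cyclic AMP and RAP, the genes of that pathway were read in the same liver fit. Of 51 listed genes 49 were tested, 5 rose and 9 fell, with a median log2 fold change of 0.00 beside 0.01 for all genes, of which 9.42% rose and 8.8% fell. With library sizes alone 1 rose and 16 fell (median -0.14 beside -0.13), while 1.82% and 19.1% of all genes did, so the balance of directions depends on the scaling. Among the exchange factors Rapgef1, an exchange factor recruited by adaptor proteins, rose by 0.14 ± 0.04 (adjusted p = 0.0214), at 0.00 with library sizes alone, and Rapgef3, which encodes EPAC1, had -0.05 ± 0.08 (adjusted p = 0.747). Of the RAP GTPases, Rap2b fell by 0.41 ± 0.08 (adjusted p = 0.000682), Rap1b fell by 0.17 ± 0.05 (adjusted p = 0.0190) and Rap2a rose by 0.20 ± 0.06 (adjusted p = 0.0205). With library sizes alone Rap2a had 0.06 (adjusted p = 0.412).

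Of the GTPase-activating proteins that turn RAP off, Rap1gap2 fell by 0.74 ± 0.10 (adjusted p = 5.48e-05), from 5.70 to 3.13 CPM on average, and the other 5 did not pass. Of the effectors, Apbb1ip (RIAM), an adaptor of leukocyte integrins, fell by 0.67 ± 0.11 (adjusted p = 0.000225), and Rasip1, an endothelial RAP effector, fell by 0.20 ± 0.06 (adjusted p = 0.0214). The Rasip1 call was lost without replicate 1 of SD at CT4. The Kupffer and lymphocyte marker sums given above were lower in the same livers, and their part in these values was not tested. Upstream, Gcgr, the glucagon receptor, rose by 0.25 ± 0.04 (adjusted p = 0.000408), and with library sizes alone by 0.11 (adjusted p = 0.0386). Among the adenylate cyclases, which make cyclic AMP, Adcy7 fell by 0.47 ± 0.06 (adjusted p = 5.64e-05) and Adcy4 fell by 0.40 ± 0.08 (adjusted p = 0.00183), while Adcy9 rose by 0.28 ± 0.06 (adjusted p = 0.00120; 0.15, adjusted p = 0.0563, with library sizes alone). Adcy6 rose by 0.15 ± 0.05 (adjusted p = 0.0400), a call that 14 of the 24 libraries could each end, and which stood at 0.02 with library sizes alone.

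Of 10 phosphodiesterases, which break cyclic AMP down, Pde4a fell by 0.31 ± 0.10 (adjusted p = 0.0377) and Pde7a fell by 0.18 ± 0.05 (adjusted p = 0.0202), and 11 of the 24 libraries could each end the Pde4a call. None of the 6 protein kinase A subunits passed (edgeR, 0 of 6).

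Last, the genes whose level in the 24 livers ran most like each of the 4 were listed by Pearson's r of TMM-scaled log2 CPM, as a description over libraries that share time and condition. For Rapgef4os1 these included Gpcpd1 (a glycerophosphocholine phosphodiesterase, r = 0.87), Npc1 (the lysosomal cholesterol transporter, 0.87), Slc6a16 (0.85) and B930025P03Rik (0.85). For B930025P03Rik they were Npc1 (r = 0.91), Gpcpd1 (0.89), Slc22a23 (0.86), Znrf3 (a ubiquitin ligase for Wnt receptors, 0.86) and Fgd6 (0.86), so that Npc1 and Gpcpd1 stood in both lists. For Gm45301 they were Aass (lysine breakdown, r = 0.86), Oxnad1 (0.82), Slc25a15 (the mitochondrial ornithine carrier, 0.82), Cdk20 (0.82) and Cps1 (the entry enzyme of the urea cycle, 0.82). Rapgef4 ran with Arhgap21 (a GTPase-activating protein, r = 0.93), Chd1 (a chromatin remodeller, 0.89), Lrrc28 (0.87), Arhgef26 (0.86) and Slmap (0.86). Gm45301 had r = -0.17, -0.31 and -0.18 with Rapgef4os1, B930025P03Rik and Rapgef4, and Rapgef4 had 0.53 and 0.52 with Rapgef4os1 and B930025P03Rik.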

How the data were processed

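The members, the gene lists and the tests were chosen with earlier results of these data known. Per the study's methods, the authors trimmed reads with Trim Galore, aligned them to GRCm38 with HISAT2, kept high-quality alignments with SAMtools and deposited read counts per gene from featureCounts, counted by strand. The values used here are these counts as deposited, in 54833 features and 96 libraries of 24.8 to 58.5 M counts. All 96 single files equal their columns. Ensembl IDs were named from GENCODE M21 (49326 of 49585 matched). Samples were grouped by their titles. CPM is the count scaled to the library total.

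Within each tissue, edgeR 4.0.16 (R 4.3.3) fitted the counts by its quasi-likelihood method with TMM scaling, filterByExpr over the 12 groups and time as a factor; p-values were adjusted by Benjamini-Hochberg over all genes tested, and calls are adjusted p under 0.05. Standard errors are the absolute log2 fold change over the square root of F. Interaction terms (5), a 24 h cosine and sine, and pairs of tissues in CON were tested the same way. JTK_CYCLE was run on CPM with its exact null, p multiplied by the 6 phases tried. Correlations used 100000 permutations, two-sided. DESeq2 1.42.0, other scalings, no filter (at least 1 count), a replicate block and each library left out were alternatives. The test scripts were tested on simulated data. Genes named are the 4, neighbours within 200 kb that passed, the nearest tested coding gene on each side, list genes that passed (up to 3 per role by size) and the 5 most alike, of which 1 is not reported here; Gm45044, 3930402G23Rik, Rapgef4os2, Rapgef4os3, Rapgef3, Adcy6 and the 2 reference RNAs that passed were named after their values were seen. Leaving out replicate 1 of cerebellum CON at CT8 in the tests beyond the leave-one-out fits was chosen after seeing the data.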

Additional observations from a re-analysis of the deposited data

How the results depend on the processing

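The liver differences of Rapgef4os1, B930025P03Rik and Gm45301 kept their sign and moved by less than the spread between replicates under all 87 alternatives, 29 for each gene. These genes were selected on this difference and the alternatives refit the same counts, so this describes the fits and is no support for it. Of 240 alternative values of the comparisons, 196 kept their call or stayed within 1.5 times. The number of genes that differed between SD and CON was 495 in kidney and 1043 without the low-count filter, 7 in forebrain and 17 by DESeq2, and 0 in cerebellum but 1 by DESeq2 and 1 without the filter. With a library left out it ran from 3021 to 4445 in liver, 358 to 534 in kidney and 3 to 9 in forebrain. The condition by time test went from 0 genes to 42 by DESeq2 and 876 without the filter in liver (0 to 4 with a library left out), to 129 and 1748 in kidney, to 679 and 553 in forebrain, and to 190 and 3300 in cerebellum, or 51 there without replicate 1 of CON at CT8. The wave difference went from 0 to 409 in liver, 38 in kidney and 1 in forebrain without the filter. The cosine fit called 1749 and 2173 genes in CON and SD liver, 845 and 475 in kidney, 23 and 1 in forebrain and 1 and 21 in cerebellum, and JTK_CYCLE on TMM-scaled CPM called 0, 135 and 0 in CON liver, SD liver and CON kidney. The cause of these shifts was not tested.

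Same-numbered libraries of SD and CON did not deviate together in a steady way. The correlation of their deviations was over 0.1 in 1 of 6 pairs in liver, 3 in kidney, 2 in forebrain and 1 in cerebellum. It was over 0.1 in 0 of 36 pairs of control tissues. The values ran from -0.06 to 0.25 in kidney and from -0.23 to 0.38 in forebrain. No pairing was used in the main fits. With the replicate block the liver count was 3436 in place of 3592, the condition by time count in liver 2 in place of 0, and no call of the 4 genes changed.

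Rapgef4 in CON liver against cerebellum reversed with library sizes alone (-0.46) and lost its call by DESeq2 (0.17, adjusted p = 0.118). Against forebrain, liver Rapgef4 gained a call with library sizes alone (-0.74) and by DESeq2 (-0.26), and Rapgef4os1 with library sizes alone (-1.06, adjusted p = 0.0106). With a pseudocount of 1 CPM the liver correlations of Rapgef4os1 with Rapgef4 were 0.69 in CON and 0.63 in SD and passed, and in CON cerebellum the value was -0.29 without replicate 1 of CT8 and -0.12 without the 2 farthest libraries. With library sizes alone 2 neighbours fell in place of 1, and 1 and 16 genes of the cyclic AMP list rose and fell in place of 5 and 9 (8 rose by DESeq2). With 2 libraries per time, differences at single times were not tested.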
